A study of Mus musculus with 11 samples.

Results

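The 10 genes described here belong to the antioxidant programme of the transcription factor NRF2, and they were followed across the cell lineages of the aged mouse lung and across 4 genotypes. They are Nfe2l2, which encodes NRF2 itself, and Gclc, Gclm, Slc7a11, Gsr, Txnrd1, Nqo1, Prdx1, Srxn1 and Hmox1. They were chosen by name from the 31053 genes of the count matrices, for their known roles, and each matched 1 row by its symbol. Droplet-based 3′ single-cell RNA sequencing of dissociated whole lung gave 11 libraries with 81983 cell barcodes, of which 69266 had 1000 to 30000 UMIs (unique molecular identifiers, the count of captured transcripts) and at most 14% mitochondrial UMIs and were kept.

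Per the labels, WT mice (+/+) gave 1 library from an animal 18 months old. The p21Het mice (+/-), heterozygous for p21 (gene Cdkn1a, a cell cycle inhibitor), gave 3 libraries. The p21mTert mice (+/mTert), with an mTert allele beside a normal p21 allele, gave 5 libraries, mTert being mouse telomerase reverse transcriptase. The p21mTertCD mice (+/mTertCD) gave 2 libraries, and the labels do not spell out mTertCD further. A library is written as its group with its replicate number. WT_1, p21Het_1 and p21mTert_1 came from a first deposit, with ages labelled 18, 19 and 20 months, and the other 8 came from a later deposit at 18 months. All 3 p21-modified groups carry 1 altered p21 allele, and every lung went through enzymatic digestion at 37 °C and red blood cell lysis. The labels do not say whether the libraries of a group came from separate animals, so p-values measure the spread between these libraries.

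NRF2 is normally bound by KEAP1, which marks it for degradation. When electrophiles or oxidants modify KEAP1, NRF2 accumulates, pairs with small MAF proteins and binds antioxidant response elements, while BACH1 competes for the same sites. Because this control acts largely on the protein, the RNA of Nfe2l2 does not report NRF2 activity by itself, and its targets are usually read instead. The targets are known in lung for handling inhaled oxidants and for supplying glutathione to the airway lining.

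The letters TGACNNNGC, the core of the antioxidant response element, were searched on both strands of RefSeq promoter windows that run from 250 bases before to 50 bases after each start site (GRCm38.p6). The table held a window for 7 of the 10 genes, and 5 of these 7 (71.4%) contained the letters, against 14.0% of 27025 genes with a window. Each of the 5 is shown because it places these letters beside a start site of the gene, 5′ to 3′ on the gene's strand, with the matching bases in capitals and 10 bases of flank.

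Nfe2l2, chr2:75704885-75704913, minus strand, 240 bases before the start: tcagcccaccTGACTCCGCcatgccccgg
Gclm, chr3:122245413-122245441, plus strand, 134 bases before the start: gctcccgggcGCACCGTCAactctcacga
Txnrd1, chr10:82859104-82859132, plus strand, 92 bases before the start: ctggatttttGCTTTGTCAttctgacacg
Prdx1, chr4:116685456-116685484, plus strand, 133 bases before the start: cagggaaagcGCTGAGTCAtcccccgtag
Srxn1, chr2:152105542-152105570, plus strand, 28 bases after the start: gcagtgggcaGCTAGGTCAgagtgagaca

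The match in Nfe2l2 reads along the gene's strand and the other 4 read on the opposite strand. The match in Txnrd1 is in the second of its 3 windows (chr10:82858956-82859255), and its distance is to the start site of that window. The first window, at the gene's annotated start (chr10:82833951), held no match. The windows of Slc7a11 and Nqo1 held no match, which says only that these letters are not in those 300 bases. Gclc, Gsr and Hmox1 were not in the table. A match is a description of the sequence, and binding of NRF2 was not measured.

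The libraries held 42038434 to 85988955 UMIs each, and the kept cells had median totals of 4133 to 6454 UMIs. Mitochondrial UMIs took a median of 6.30% to 6.58% per cell in libraries of the first deposit, above the 2.82% to 4.28% of the later libraries. Pairs of libraries shared 4 to 20 cell barcodes, at most 0.322% of the smaller library. Markers placed 63319 kept cells (91.4%) in 1 of 20 lineages. Neutrophils made up 24.8% of the kept cells of p21Het_3 and 2.62% to 12.8% of the other libraries, and AT2 cells made up 2.80% and 3.95% to 8.86%, respectively. In p21mTertCD_1, T cells made up 35.4% and B cells 1.49%. Erythroid cells were 0.0732% to 0.370% of kept cells in the 3 libraries deposited first, against 1.13% to 6.07% in the other 8. The level of Tert, in UMIs per 1000000 UMIs (CPM), was 0.545 to 0.842 in the 3 p21Het libraries, 2.00 to 3.28 in the 5 p21mTert libraries, 1.90 to 2.59 in the 2 p21mTertCD libraries and 1.13 in WT (95% Poisson interval 0.812 to 1.53). The Tert groups did not overlap between p21Het and either mTert group, although neither difference passed the test across all genes (edgeR quasi-likelihood test, Benjamini-Hochberg adjusted p = 0.191 for p21mTert and 0.139 for p21mTertCD). Cdkn1a ranged from 118 to 187 CPM over all 11 libraries and its groups overlapped.

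Levels below are CPM, the UMIs of a gene in every 1000000 UMIs of all genes in the same cells of a library, and are given as mean ± SD over libraries. Since these are 3′ tag counts, 1 UMI stands for 1 captured transcript whatever its length, and levels are compared mainly within a gene, between lineages. A lineage entered the order when at least 6 libraries had 20 or more of its cells, which left 19 of the 20. The lineage left out was basophils, with 5 such libraries. Neighbours in the order of each gene's mean log2 level were compared within libraries by exact permutation of signs, 2-sided, on log2(level + 1), with Benjamini-Hochberg adjustment over 180 pairs, of which 31 passed at an adjusted p under 0.05. The order was set from the same levels, so the direction of each step was largely fixed before its test. Fewer pairs passed with some single libraries left out. None passed in the later deposit alone, where all 31 kept their direction.

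**Figure D1:**
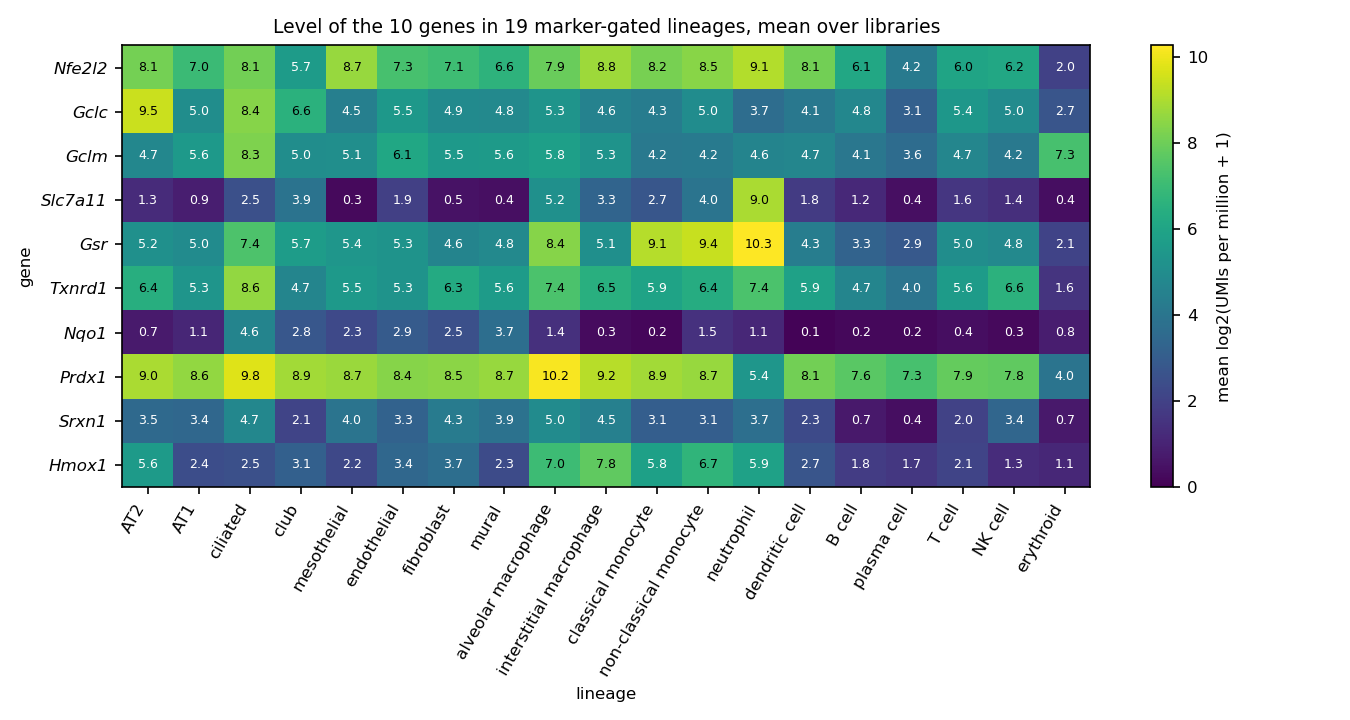
Mean log2(CPM + 1) of the 10 NRF2 pathway genes (rows) in 19 marker-gated lineages (columns), averaged over libraries with at least 20 cells of the lineage. Neutrophils are the highest lineage for Nfe2l2, Slc7a11 and Gsr, ciliated cells for Gclm, Txnrd1 and Nqo1, AT2 cells for Gclc, alveolar macrophages for Prdx1 and Srxn1, and interstitial macrophages for Hmox1, among these 19.

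No single lineage led the set. Nfe2l2 itself (chr2:75675513-75704641, minus strand, GRCm38) was highest in neutrophils at 547 ± 98.1 CPM (n = 11). Its lowest neutrophil library was p21Het_1 at 402 and its highest p21mTert_2 at 686. Interstitial macrophages followed at 442 ± 58.0, then mesothelial cells at 417 ± 70.5 (n = 7) and non-classical monocytes at 357 ± 65.8. Neutrophils exceeded interstitial macrophages in 10 of 11 libraries by 0.30 on the log2 scale (SD 0.24, exact permutation p = 0.00195, adjusted 0.0195). The steps from interstitial macrophages to mesothelial cells and from these to non-classical monocytes were within the spread (exact permutation, adjusted p = 0.579 and 0.652), and non-classical exceeded classical monocytes by 0.28 in 9 of 11 libraries (adjusted p = 0.0306). Classical monocytes, AT2 cells, dendritic cells, ciliated cells and alveolar macrophages formed a middle range of 244 to 293, endothelial cells stood at 158 ± 14.7, and B and T cells at 70.1 ± 6.65 and 63.6 ± 8.23. Plasma cells (18.7 ± 6.16, n = 8) and erythroid cells (4.10 ± 3.23, n = 9) were lowest. Of all Nfe2l2 UMIs, AT2 cells held 16.4% and neutrophils 11.97%.

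The 2 subunits of glutamate-cysteine ligase, the rate-limiting enzyme of glutathione synthesis, had different leading lineages. Gclc (chr9:77754535-77794485, plus strand), the catalytic subunit, was highest in AT2 cells, the surfactant-producing alveolar type 2 cells, at 711 ± 122 CPM (573 to 901, n = 11). Ciliated cells had 346 ± 79.1 and were lower than AT2 cells in 11 of 11 libraries by 1.06 on the log2 scale (SD 0.39, exact permutation p = 0.000977, the smallest 11 libraries can give, adjusted 0.0117). The next lineages were far lower, with club cells at 107 ± 64.4 (n = 6), endothelial cells at 44.5 ± 8.27 and T cells at 43.3 ± 10.3, and neutrophils were 17th of the 19 at 12.8 (3.29 to 22.3). With 6 libraries for club cells, the steps from ciliated to club and from club to endothelial cells did not pass (each higher in 6 of 6, exact permutation, adjusted p = 0.141). AT2 cells contributed 66.0% of all Gclc UMIs while holding 11.8% of all UMIs.

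Gclm (chr3:122245557-122270732, plus strand), the modifier subunit that makes the catalytic subunit more efficient, was highest in ciliated cells at 318 ± 44.9 (n = 11) and stood at 26.01 ± 3.07 in AT2 cells. The second lineage was erythroid at 165 ± 61.4 (n = 9), followed by endothelial cells at 69.0 ± 7.87 and alveolar macrophages at 55.3 ± 7.31. All 3 of these steps passed: ciliated over erythroid by 0.99 on the log2 scale in 9 of 9 libraries (exact permutation, adjusted p = 0.0306), erythroid over endothelial by 1.19 in 9 of 9 (adjusted p = 0.0306), and endothelial over alveolar macrophage by 0.32 in 11 of 11 (adjusted p = 0.0117). Erythroid cells were second for Gclm and last of the 19 for Nfe2l2, Gclc, Gsr, Txnrd1 and Prdx1. With cells thinned to 1000 UMIs each, 13.3% of erythroid cells had a Gclm UMI and 0.437% an Nfe2l2 UMI, beside 26.7% and 21.9% of ciliated cells.

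Slc7a11 (chr3:49892526-50443614, minus strand) encodes xCT, the cystine importer that feeds glutathione synthesis, and its RNA was concentrated in neutrophils. These had 523 ± 137 CPM, from 273 in p21mTertCD_1 to 769 in p21mTert_1 (n = 11). Alveolar macrophages were second at 39.0 ± 19.6 and non-classical monocytes next at 15.3 ± 4.99. The first step was 3.81 on the log2 scale (SD 0.73) and the second 1.21 (SD 0.74), each in 11 of 11 libraries (exact permutation, adjusted p = 0.0117 for both). Neutrophils held 63.6% of all Slc7a11 UMIs and 4.27% of all UMIs. The club cell mean of 35.6 ± 50.3 (n = 6) rests on 29 UMIs over those libraries. At 1000 UMIs per cell, 35.1% of neutrophils had a Slc7a11 UMI, against 0.211% of endothelial cells.

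Neutrophils also led for Gsr (chr8:33652523-33698163, plus strand), glutathione reductase, which returns oxidised glutathione to its reduced form with NADPH. The level was 1250 ± 186 in neutrophils, 676 ± 79.6 in non-classical monocytes, 563 ± 75.9 in classical monocytes, 344 ± 42.9 in alveolar macrophages and 167 ± 19.3 in ciliated cells (n = 11 each). Each of these 4 steps held in 11 of 11 libraries (log2 differences 0.88, 0.26, 0.71 and 1.03, exact permutation, adjusted p = 0.0117 each). Interstitial macrophages and dendritic cells were far below these myeloid lineages, at 36.1 ± 14.3 and 19.9 ± 4.98. Basophils, outside the order, had 590 ± 158 (n = 5, 567 Gsr UMIs in all). At 1000 UMIs per cell a Gsr UMI was found in 70.0% of neutrophils and 0.681% of B cells, with unthinned shares of 96.2% and 3.02% at median depths of 3662 and 4386 UMIs.

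Txnrd1 (chr10:82833951-82897712, plus strand), cytosolic thioredoxin reductase, was highest in ciliated cells at 408 ± 134 (266 to 669, n = 11). Neutrophils (167 ± 31.1) and alveolar macrophages (165 ± 17.7) came next and did not differ beyond their spread. Ciliated cells exceeded neutrophils by 1.24 on the log2 scale (SD 0.58) in 11 of 11 libraries (exact permutation, adjusted p = 0.0117). Nqo1 (chr8:107388225-107403206, minus strand), a quinone reductase often used as the readout of NRF2, was the least abundant of the 10. It had 32.5 ± 26.4 CPM in ciliated cells (5.23 to 81.7, n = 11), 13.9 ± 7.98 in mural cells (n = 8), 15.96 ± 23.4 in club cells (n = 6) and 6.94 ± 2.15 in endothelial cells. In club cells 1 p21Het library held 17 Nqo1 UMIs (62.1 CPM), against 4 over 4 p21mTert libraries and 0 in p21mTertCD. Mural cells held 7, 20 and 6 Nqo1 UMIs in p21Het, p21mTert and p21mTertCD. The ciliated and mural levels did not differ beyond the spread (log2 difference 0.71, higher in 5 of 8 libraries, exact permutation, adjusted p = 0.580). No myeloid or lymphoid lineage exceeded a mean of 1.84. Ciliated cells held 44.9% of all Nqo1 UMIs, and 2.83% of them had a Nqo1 UMI at a depth of 1000, against 0.0176% of B cells.

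Prdx1 (chr4:116685544-116700822, plus strand), a peroxiredoxin that reduces hydrogen peroxide, was found in most lineages. Alveolar macrophages led with 1171 ± 231 CPM (n = 11), ciliated cells had 879 ± 115 and interstitial macrophages 593 ± 147. Alveolar macrophages exceeded ciliated cells by 0.40 on the log2 scale in 11 of 11 libraries (exact permutation, adjusted p = 0.0117), and ciliated cells exceeded interstitial macrophages by 0.59 in 10 of 11 (adjusted p = 0.0264). Neutrophils, which led for Nfe2l2, Gsr and Slc7a11, were next to last at 44.7 ± 17.7, above erythroid cells at 23.04 ± 20.05 (n = 9). Srxn1 (chr2:152105516-152111376, plus strand), sulfiredoxin, repairs over-oxidised peroxiredoxins. Its levels were 30.8 ± 6.85 in alveolar macrophages, 27.9 ± 12.7 in ciliated cells, 23.9 ± 12.8 in interstitial macrophages and 19.5 ± 8.63 in fibroblasts, and none of these neighbours differed beyond the spread. Basophils, outside the order, had 45.99 ± 25.7 (n = 5, 20 to 64 cells and 45 Srxn1 UMIs in all), so alveolar macrophages were highest only among the 19 lineages.

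Hmox1 (chr8:75093621-75100589, plus strand), heme oxygenase, breaks heme down to biliverdin, carbon monoxide and iron. It was highest in macrophages, with 286 ± 297 CPM in interstitial macrophages, 135 ± 37.3 in alveolar macrophages and 113 ± 41.9 in non-classical monocytes (n = 11 each). The SD of the interstitial mean comes with 1 library, p21mTert_5, at 1129, and without it the mean was 202 ± 105 (n = 10). Interstitial and alveolar macrophages did not differ beyond the spread (higher in interstitial in 8 of 11 libraries, log2 difference 0.75, exact permutation, adjusted p = 0.163). Non-classical monocytes exceeded neutrophils (59.9 ± 12.8) by 0.84 on the log2 scale in 9 of 11 libraries (exact permutation, adjusted p = 0.0406). AT2 cells stood at 47.3 ± 5.11, above fibroblasts in 11 of 11 libraries (log2 difference 1.88, exact permutation, adjusted p = 0.0117).

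**Figure D2:**
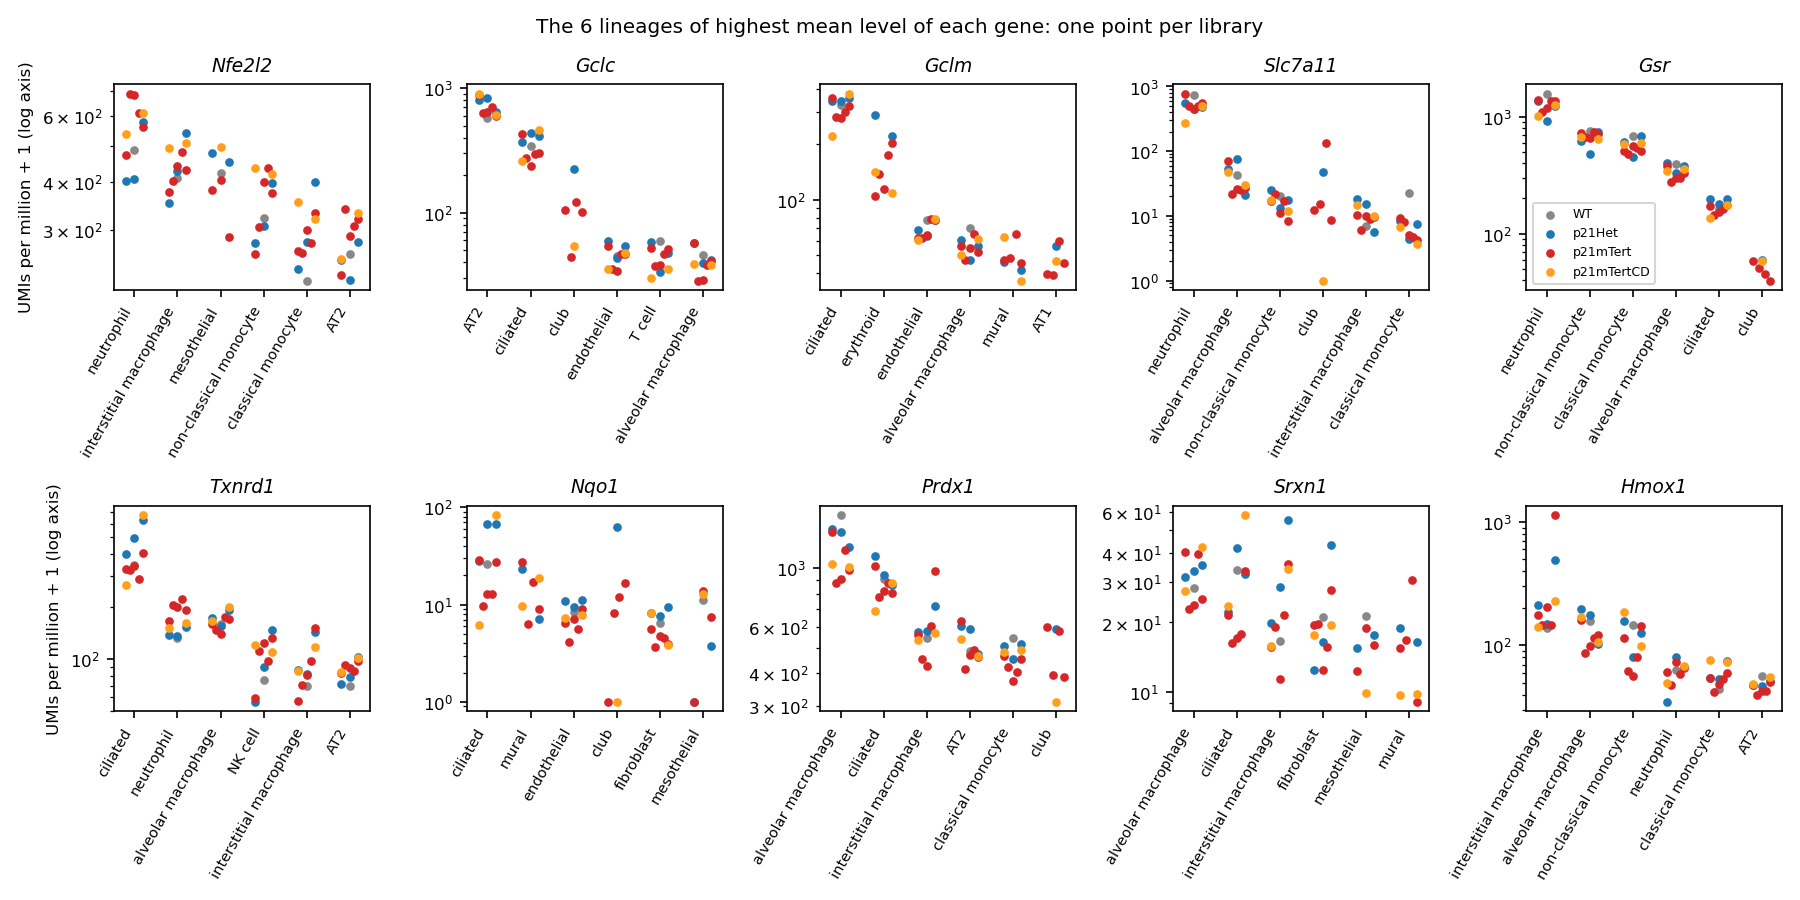
CPM (log axis) in the 6 highest lineages of each gene, with 1 point per library. Points of Slc7a11 in neutrophils (273 to 769) and Gclc in AT2 cells (573 to 901) lie apart from those of the next lineage, while those of Srxn1 and of Hmox1 in macrophages overlap.

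Within endothelial cells the markers separated general capillary cells (gCap) from aerocytes (aCap), the large capillary cells that face the alveolus. This comparison was added after the endothelial values had been seen and used the 10 libraries with at least 20 cells of both types. Sulfiredoxin showed the largest difference, with Srxn1 at 21.8 ± 8.62 CPM in aCap and 6.64 ± 2.21 in gCap, higher in aCap in 10 of 10 libraries (log2 difference 1.55, exact permutation p = 0.00195, the smallest 10 libraries can give, adjusted over 10 genes 0.00488). Gclm was 113 ± 12.8 against 58.8 ± 9.22 (log2 difference 0.93) and Gclc 67.6 ± 19.8 against 38.6 ± 8.14 (0.77), both in 10 of 10 libraries (exact permutation, adjusted p = 0.00488). Prdx1 was 384 ± 51.1 against 330 ± 45.1 (log2 difference 0.22, 10 of 10, exact permutation, adjusted p = 0.00488) and Gsr 54.3 ± 26.6 against 35.9 ± 7.19 (0.47, 9 of 10, adjusted p = 0.0326). Txnrd1 went the other way, at 23.0 ± 10.6 in aCap and 39.2 ± 8.05 in gCap (log2 difference -0.89, higher in aCap in 1 of 10, exact permutation, adjusted p = 0.0117). Nfe2l2, Nqo1, Hmox1 and Slc7a11 did not pass (exact permutation, adjusted p = 0.0708, 0.067, 0.996 and 0.434). Over 15 alternative settings, Srxn1, Gclm, Gclc, Prdx1 and Txnrd1 passed in 15, Gsr in 7 and Nqo1 in 4. Hmox1 passed in 1, with a log2 difference of 0.36 without p21mTertCD_1 (exact permutation, adjusted p = 0.026), where the sign had turned. Nfe2l2 and Slc7a11 passed in 0 of the 15. The share of all genes that differ between aCap and gCap is not given, so these results describe the 10 genes only.

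The genes whose levels over the 19 lineages were most like those of the NRF2 genes were listed by Pearson r of mean log2 levels, as a description over lineages that share libraries. Of 13424 genes compared, Bach1, the repressor that competes with NRF2, was the most similar to Nfe2l2 (r = 0.94), followed by Samd4b (0.93) and Dusp1 (0.93). Dusp1 is on the list of genes induced by tissue dissociation that is used below. For Nqo1 they were Olfml2a (0.92), Pir (0.89) and Map1b (0.89), for Slc7a11 Il1rn (0.93), Hcar2 (0.92) and Gm20406 (0.91), and for Hmox1 C5ar2 (0.90), Plin2 (0.89) and Lyz2 (0.89). The nearest single gene was Noxo1 for Gclc (0.91), Fam213a for Gclm (0.82), Pygl for Gsr (0.95), Lasp1 for Txnrd1 (0.93), Etfa for Prdx1 (0.94) and Camk1 for Srxn1 (0.91). None of the 18 genes named here is another of the 10.

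The genotypes were compared to ask whether these genes differ in p21mTert lungs from p21Het and from p21mTertCD lungs. In the sums over all kept cells, 0 of the 10 genes passed in p21mTert minus p21Het, where 0.0114% of 17503 tested genes were called, 0 of 10 in p21mTert minus p21mTertCD (background 0.00571%), and 0 of 10 in p21mTertCD minus p21Het (background 0.12%), by the edgeR quasi-likelihood test with Benjamini-Hochberg adjustment over all genes. DESeq2 also called 0 of the 10 in each, where it called 0.178%, 3.89% and 1.09% of the genes it adjusted. At an unadjusted p under 0.05 there were 2, 1 and 0 of the 10, against 7.24%, 16.1% and 6.26% of all genes. The smallest adjusted p among the 10 was 0.672, 0.253 and 0.804, respectively. Each pair of these comparisons shares the libraries of 1 group. Sums over all cells cannot tell fewer cells of a type from less RNA per cell.

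Nqo1 gave the lowest unadjusted p. It stood at 2.97, 4.67 and 3.29 CPM in p21Het_1 to p21Het_3, at 2.06, 1.502, 1.84, 1.77 and 2.62 in p21mTert_1 to p21mTert_5, at 1.07 and 3.03 in p21mTertCD, and at 2.48 in WT (95% Poisson interval 2.00 to 3.05). All 5 p21mTert libraries were below all 3 p21Het libraries, a pattern shared by 0.988% of all tested genes, while the p21mTertCD libraries lay on both sides. The log2 fold change in p21mTert minus p21Het was -0.97 (SE 0.32, edgeR adjusted p = 0.672), and within the later deposit alone it was -1.18 (adjusted p = 0.261). With each of 13 lineages given equal weight the difference was -0.51 (permutation of library labels, p = 0.0357, adjusted 0.459). With so few libraries to permute, no gene could have passed this adjustment, so that test decides nothing. Only 2 lineages held enough Nqo1 counts to be tested by edgeR.

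Srxn1 stood at 10.0, 14.7 and 11.9 in p21Het, 10.3, 8.36, 7.20, 10.1 and 10.5 in p21mTert, 12.4 and 12.4 in p21mTertCD, and 8.08 in WT (interval 7.18 to 9.06). The p21mTert libraries overlapped those of p21Het and lay below both p21mTertCD libraries, a pattern shared by 4.28% of tested genes. Its log2 fold change was -0.47 (SE 0.17, edgeR adjusted p = 0.672) against p21Het and -0.50 (SE 0.19, adjusted p = 0.253) against p21mTertCD.

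Gsr stood at 188, 137 and 379 CPM in p21Het and Slc7a11 at 31.0, 30.3 and 75.5, so that p21Het_3 was far above the other 2 for both. In p21mTert, Gsr ranged from 105 to 199 and Slc7a11 from 14.0 to 47.1. In p21mTertCD they stood at 228 and 169 and at 35.2 and 24.7, and in WT at 188 (interval 184 to 193) and 27.6 (25.9 to 29.4). The log2 fold changes in p21mTert minus p21Het were -0.66 (SE 0.33, edgeR adjusted p = 0.672) and -0.78 (SE 0.43, adjusted p = 0.679), and without p21Het_3, the library with 24.8% neutrophils, they were -0.06 and -0.14. Inside the neutrophil gate the same contrasts were 0.02 (SE 0.12) and 0.04 (SE 0.19), with adjusted p = 0.994 for both in the edgeR fit. The part of the neutrophil share in the folds over all cells was not tested.

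Among the remaining genes, Gclc stood at 192, 171 and 74.4 in p21Het, its low value again in p21Het_3, at 113 to 151 in p21mTert, at 101 and 81.7 in p21mTertCD, and at 125 in WT (interval 121 to 129). Both Gclc and Gclm were higher in all 5 p21mTert libraries than in both p21mTertCD libraries, which 15.9% of tested genes also were. Gclm ranged from 44.9 to 53.7 in p21Het, 41.0 to 60.2 in p21mTert and 39.6 to 40.1 in p21mTertCD, and was 41.5 in WT (interval 39.4 to 43.6). Its p21mTertCD libraries were below all p21Het libraries, as for 5.79% of tested genes. Hmox1 ranged from 48.5 to 55.4 in p21Het, 22.8 to 61.9 in p21mTert and 33.2 to 63.4 in p21mTertCD, and was 34.8 in WT (interval 32.9 to 36.7). Nfe2l2, Prdx1 and Txnrd1 had overlapping groups in all 3 comparisons.

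**Figure D3:**
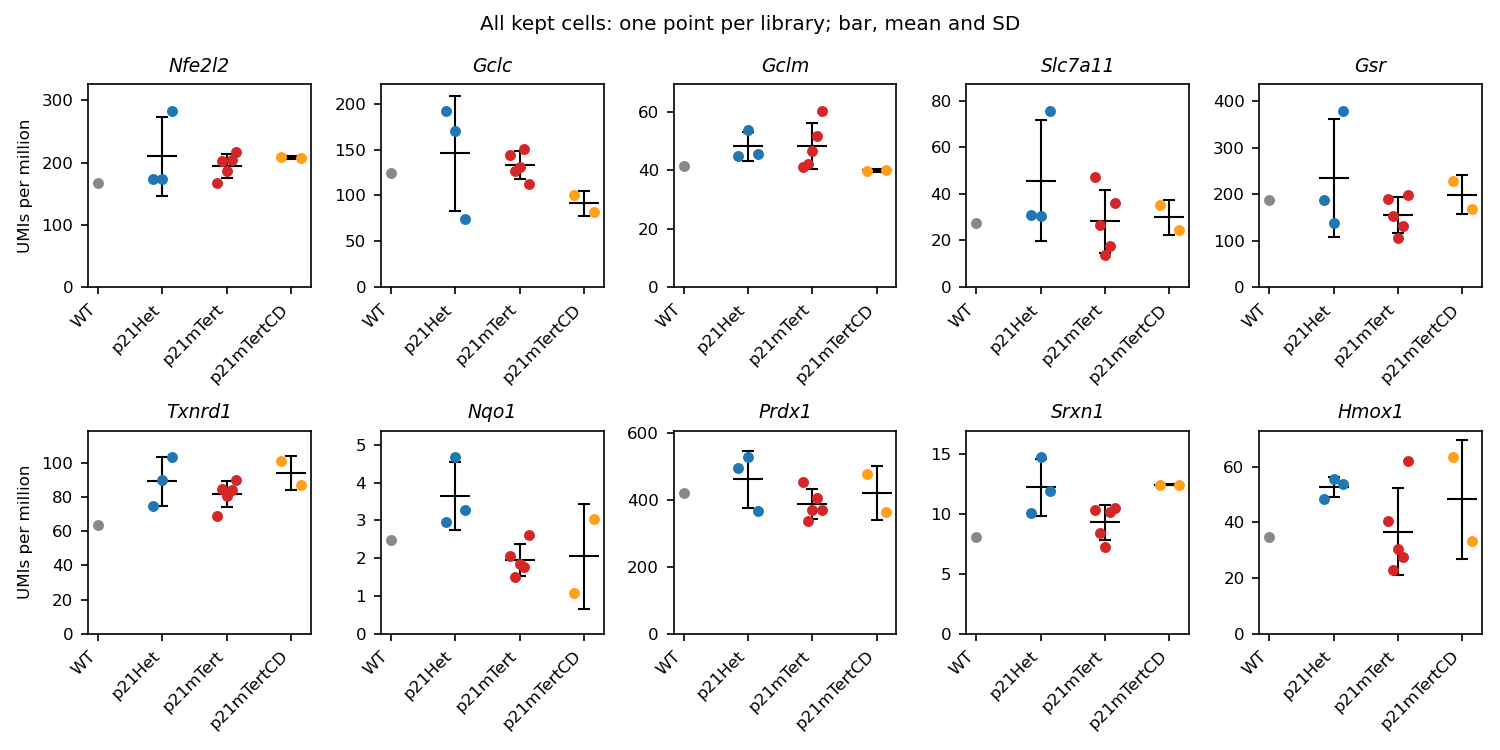
CPM over all kept cells of each library, 1 panel per gene, with group means as bars through the points and SD as error bars (WT is 1 library without an SD). Only for Nqo1 do all 5 p21mTert libraries lie below all 3 p21Het libraries, and the high p21Het point of Gsr (379) and Slc7a11 (75.5) is p21Het_3.

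The fitted direction was shared more widely than any single call. All 10 genes had a negative log2 fold change in p21mTert minus p21Het, with a median of -0.39, while 47.0% of all tested genes were negative and their median was 0.015. These signs are those of the edgeR fit, and the mean CPM of Gclm was 48.06 in p21Het and 48.27 in p21mTert. In p21mTert minus p21mTertCD, 8 of 10 were negative (median -0.19, all genes 0.019), and in p21mTertCD minus p21Het 8 of 10 (median -0.16, all genes -0.030). The first count depends on single libraries: Nfe2l2 turned to 0.16 without p21Het_3, and without p21Het_2 Gclc turned to 0.04 and Gclm to 0.08. Without p21mTert_1, Gclm turned to 0.01.

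Within lineages, 16 could be fitted, and 125 of the 160 possible combinations of a gene and a lineage passed the filter on low counts. Nqo1 was testable in 2 lineages, Srxn1 and Slc7a11 in 10, Hmox1 in 12, Gsr in 14, Nfe2l2, Gclc and Txnrd1 in 15, and Gclm and Prdx1 in 16. With this filter no combination passed in any of the 3 contrasts by edgeR or by DESeq2, while 0.0305%, 0.082% and 0.0907% of all gene and lineage combinations were called by edgeR and 0.129%, 0.37% and 0.415% by DESeq2. With no filter on low counts, edgeR called 3 combinations of the 10 genes in p21mTert minus p21Het and 4 in p21mTert minus p21mTertCD, where it called 0.535% and 0.565% of all combinations. These shares are above the 0.0305% and 0.082% called with the filter from the same cells. In p21mTert minus p21Het, 18 of 125 (14.4%) had an unadjusted p under 0.05, against 5.64% of all combinations, and 85 of 125 (68.0%) had a negative fold change, against 50.4% of all combinations. In p21mTert minus p21mTertCD there were 12 (9.6% against 6.56%) with 83 negative (66.4% against 49.2%), and in p21mTertCD minus p21Het 6 (4.8% against 4.88%) with 64 negative (51.2% of both). The 125 combinations come from the same libraries and the same genes, so they are not independent. Their shares are descriptions and not tests.

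The genes differed in how uniform they were over lineages. Srxn1 had a negative fold change in 10 of 10 lineages in both p21mTert minus p21Het (-0.80 to -0.0044) and p21mTert minus p21mTertCD (-1.02 to -0.05), contrasts that share the p21mTert libraries. Slc7a11 was negative in 9 of 10, Gclc in 13 of 15 and Hmox1 in 10 of 12 lineages in p21mTert minus p21Het. Nfe2l2 was positive in 12 of 15 lineages in the same contrast, although its sum over all cells was negative. In p21mTert minus p21mTertCD, Txnrd1 was negative in 13 of 15 lineages and Hmox1 in 10 of 12. None of these single values passed the edgeR test with adjustment. The lineages come from the same libraries, so their signs are not independent. For example, Slc7a11 was highest in p21Het_2 in both AT2 cells (8.19 CPM) and B cells (7.20 CPM). In gCap cells p21Het_2 stood at 4.43, below p21Het_1 at 8.79.

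**Figure D4:**
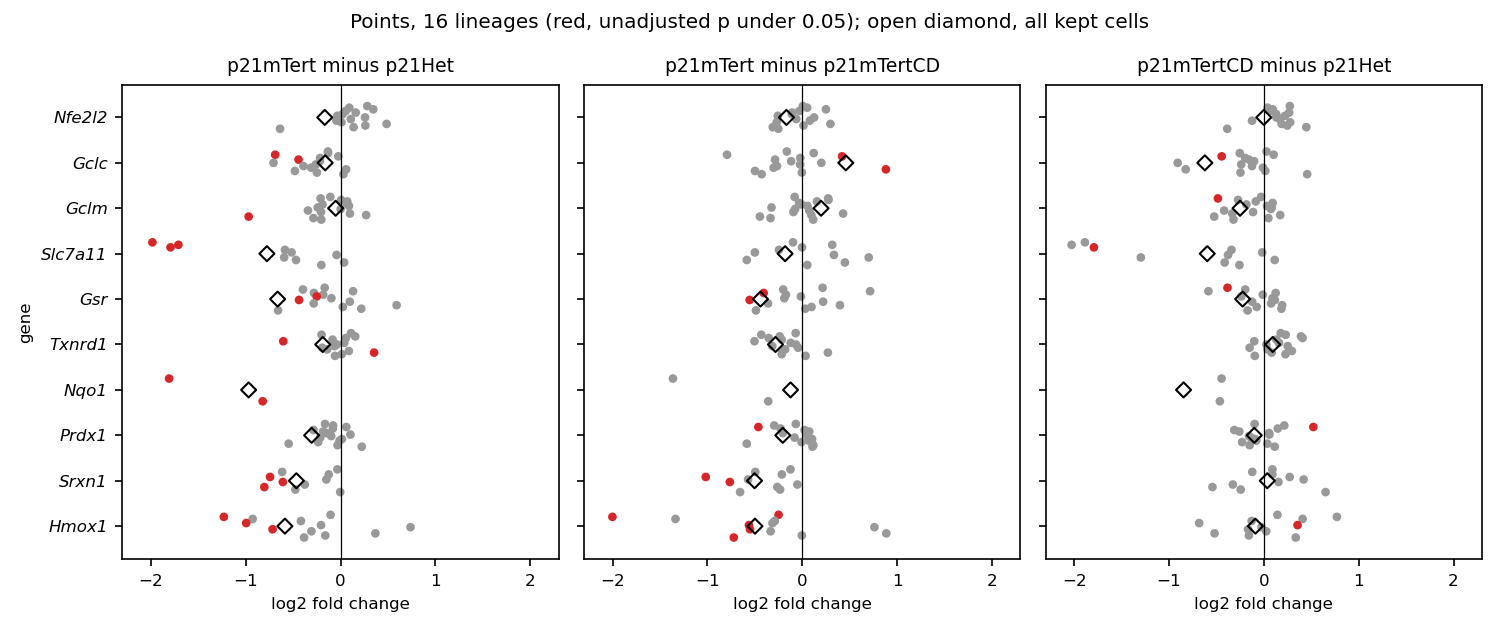
Log2 fold change of each gene in 3 contrasts, with 1 point per lineage in which the gene could be tested (up to 16), red where the unadjusted edgeR p was under 0.05, and a diamond for the sum over all kept cells. Points of Srxn1 lie below 0 in both p21mTert contrasts, and those of Nfe2l2 lie mostly above 0 against p21Het.

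Ciliated cells, the multiciliated cells of the airway, had the most genes of the 10 with an unadjusted p under 0.05 among the 16 lineages. In p21mTert minus p21Het, 9 of the 10 genes were negative there with a median log2 fold change of -0.48 (all genes -0.0075), and 6 were under that p, against 9.37% of all genes in these cells. No gene of the 10 passed after adjustment, where 0.074% of tested genes did. For Nqo1 the ciliated levels were 27.2, 65.7 and 66.2 CPM in p21Het, 27.8, 8.64, 11.9, 11.9 and 26.3 in p21mTert, 5.23 and 81.7 in p21mTertCD, and 25.4 in WT (95% Poisson interval 18.4 to 34.3). The groups overlapped only through p21Het_1 and p21mTert_1, both of the first deposit. The log2 fold change was -1.81 (SE 0.54, edgeR adjusted p = 0.361), on 46, 169 and 78 Nqo1 UMIs in p21Het and 27 to 40 in each p21mTert library. With no filter on low counts, which adds genes to the fit, the same contrast passed (-1.79, SE 0.29, edgeR adjusted p = 4.2e-05). The Nqo1 counts were the same in both fits, and the smaller SE came with the unfiltered one. Without the filter 0.535% of all combinations were called in this contrast, against 0.0305% with it, so the pass is not separate evidence. Within the later deposit the fold was -2.34 (edgeR adjusted p = 0.128).

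Txnrd1 in ciliated cells stood at 400, 494 and 629 in p21Het, 329, 323, 340, 288 and 403 in p21mTert, 266 and 669 in p21mTertCD, and 348 in WT (interval 320 to 377). Its log2 fold change in p21mTert minus p21Het was -0.60 (SE 0.22, edgeR adjusted p = 0.430), and -0.59 (SE 0.14, adjusted p = 0.0151) with no filter on low counts. Gclc gave -0.44, Gsr -0.25, Hmox1 -0.996 and Srxn1 -0.74 in the same fit, with adjusted p from 0.430 to 0.481, while Nfe2l2 gave 0.02. Libraries tended to be high or low for many of the genes at once. The library p21mTertCD_2 was highest for 6 of the 10 and among the 3 highest for 8, beside 11.7% and 30.3% of all genes tested in these cells, and p21Het_2 was among the 3 highest for 8 (all genes 16.2%). The library p21mTertCD_1 was lowest for 5 (all genes 18.5%) and among the 3 lowest for 8 (44.4%), and p21mTert_2 was among the 3 lowest for 8 (33.3%). The 2 p21mTertCD libraries were at opposite ends.

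The ciliated gate held 13718 to 17392 CPM of its own 10 markers in every library, none of them at 0. Club cell markers in it summed to 3774 to 4601 in p21Het, 3443 to 9658 in p21mTert, 3559 to 4628 in p21mTertCD and 21191 in WT, and their part in the result was not tested.

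In endothelial cells Hmox1 had 13.9, 15.1 and 10.7 CPM in p21Het and 8.29, 7.18, 8.62, 9.35 and 7.55 in p21mTert, so that the groups did not overlap. In these cells 2 of the 10 genes, Hmox1 and Nqo1, had every p21mTert library below every p21Het library, as had 0.971% of all genes tested there. In p21mTertCD it stood at 9.40 and 13.6 and in WT at 8.55. The log2 fold change in p21mTert minus p21Het was -0.72 (SE 0.20, edgeR adjusted p = 1.00), in a fit where 0% of tested genes were called. These are few transcripts, 17 to 71 UMIs per p21Het library, and 1 cell of p21Het_2 held 18 of its 71. Interstitial macrophage markers in the endothelial gate summed to 206 to 407 in p21Het and 171 to 372 in p21mTert, and alveolar macrophage markers to 78.9 to 1244 and 50.9 to 537. Of the 10 interstitial markers 1 to 3 were at 0 in both groups, and of the 10 alveolar markers 0 to 3 in p21Het and 0 to 1 in p21mTert. Their part in the result was not tested. Nqo1 in the same cells was 10.0, 8.52 and 10.1 in p21Het and 5.53, 3.17, 6.08, 4.56 and 7.97 in p21mTert, also without overlap (log2 fold change -0.82, SE 0.26, edgeR adjusted p = 1.00). In gCap cells Hmox1 gave -0.66 (SE 0.19, edgeR adjusted p = 1.00) and Gclc -0.40 (SE 0.13, adjusted p = 1.00).

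The lowest unadjusted p of all combinations was that of Hmox1 in classical monocytes in p21mTert minus p21mTertCD, with group means of 50.7 and 73.7 CPM (log2 fold change -0.56, SE 0.14, edgeR adjusted p = 0.195, and 0.031 with no filter on low counts). In AT2 cells Slc7a11 gave -1.98 in p21mTert minus p21Het (SE 0.65, edgeR adjusted p = 0.628) at 3.18, 8.19 and 0.696 CPM in p21Het and 3.00, 0.625, 0.686, 0.664 and 1.33 in p21mTert, so that the groups overlapped. The library p21Het_2 held 80 of the 104 p21Het UMIs, and without it the fold was -0.87 (edgeR adjusted p = 1.00). Gclc in AT2 cells stood at 805, 837 and 645 in p21Het. The p21mTert libraries had 886, 628, 642, 703 and 599 and the p21mTertCD libraries 901 and 606, with all groups overlapping.

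Hmox1 in interstitial macrophages stood at 211, 149 and 486 CPM in p21Het, 175, 146, 204, 144 and 1129 in p21mTert, 139 and 229 in p21mTertCD, and 137 in WT (95% Poisson interval 107 to 173). The library p21mTert_5 was far above the other 10, and p21Het_3 was second. In p21mTert_5, 56 of 71 interstitial macrophages (78.9%) had a Hmox1 UMI and 26 had more than 10, against 1 to 16 cells with more than 10 in the other libraries, and its 5 highest cells held 41.1% of 1041 UMIs. The fitted log2 fold change in p21mTert minus p21Het was 0.37 (SE 0.62, edgeR adjusted p = 1.00) with this library and -0.65 (SE 0.32, adjusted p = 0.857) without it. In p21mTert minus p21mTertCD it was 0.89 (SE 0.73, adjusted p = 1.00) with it and -0.12 (SE 0.36, adjusted p = 1.00) without it, so the direction rests on p21mTert_5. With no filter on low counts the second contrast passed with this library included (0.87, SE 0.20, edgeR adjusted p = 0.00522). The Hmox1 counts were the same as in the fit with an SE of 0.73, so this pass is not separate evidence.

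Of the 7 other genes in the iron and heme list, 5 were highest in p21mTert_5 in these cells, while 14.96% of all 8872 genes tested there were. The other 2, Hmox2 and Alad, were not: Hmox2 stood at 92.2 CPM against 68.5 to 117 and Alad at 8.67 against 5.44 to 14.1. Slc40a1, the iron exporter ferroportin, stood at 280 CPM against 8.09 to 113 in the other 10 libraries, and the biliverdin reductases Blvrb and Blvra at 432 against 205 to 361 and at 87.8 against 57.7 to 77.3. The ferritin chains Fth1 and Ftl1 stood at 16611 against 9249 to 13269 and at 10848 against 6015 to 8391. Among the NRF2 genes, Gclm was 102 against 28.1 to 50.0 and Prdx1 974 against 426 to 717. The library was highest for 6 of the 10 NRF2 genes and among the 3 highest for 8, as it was for 14.96% and 39.5% of all genes. The library p21Het_3 was among the 3 highest for 7 of the 10 and for 37.6% of all genes. The gate's own 10 markers summed to 21914 CPM in p21mTert_5 and to 16164 to 22464 in the other 10 libraries. The 10 alveolar macrophage markers summed to 111 in p21mTert_5, with 1 at 0, and to 74.5 to 1091 in the other 10, with 1 to 6 at 0, and their part in the result was not tested. These iron genes other than Hmox1 were looked at after the Hmox1 values had been seen.

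**Figure D5:**
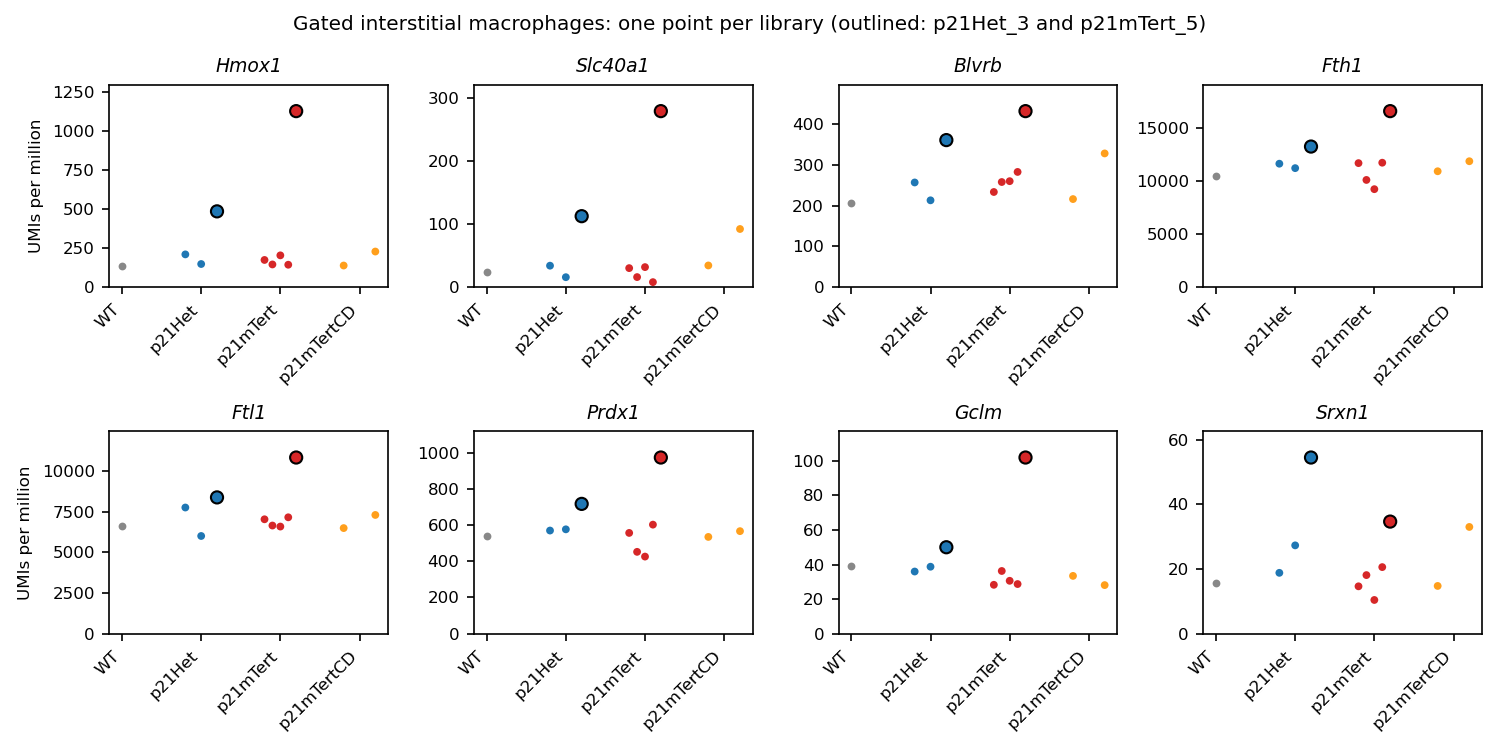
CPM of Hmox1, 4 genes of heme and iron handling, and Prdx1, Gclm and Srxn1 in interstitial macrophages, 1 point per library by genotype, with p21Het_3 and p21mTert_5 outlined. The outlined p21mTert_5 point is highest for Hmox1 (1129), Slc40a1, Blvrb, Fth1, Ftl1, Prdx1 and Gclm, and p21Het_3 is highest for Srxn1 (54.5).

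The wider NRF2 pathway was read from 6 lists with 64 genes, beside 8 genes of the ATF4 stress response and 16 genes induced by tissue dissociation, and all 88 could be tested over all kept cells. None was called in any of the 3 contrasts by edgeR (backgrounds of 0.0114%, 0.00571% and 0.12% as above). Of the 64 NRF2 pathway genes, 14, 11 and 6 had an unadjusted p under 0.05, beside 7.24%, 16.1% and 6.26% of all genes, and DESeq2 called 0, 1 (Gsta4) and 0, beside 0.178%, 3.89% and 1.09% of all genes. Of the 88, the gene of smallest p was Mgst1, a microsomal glutathione transferase, in p21mTert minus p21Het (log2 fold change -0.30, SE 0.09, edgeR adjusted p = 0.672). In p21mTert minus p21mTertCD it was Gsta4, a glutathione transferase (0.83, SE 0.24, edgeR adjusted p = 0.223). In p21mTertCD minus p21Het it was Psat1, a serine synthesis enzyme of the ATF4 list (0.50, SE 0.16, edgeR adjusted p = 0.528).

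By list, the 6 NADPH supply genes, whose product Gsr, Txnrd1 and Nqo1 consume, were negative in 6 of 6 in p21mTert minus p21Het with a median log2 fold change of -0.40, beside 0.015 for all genes. Iron and heme genes were negative in 6 of 7 (median -0.27), other glutathione genes in 10 of 14 (-0.23), detoxification genes in 11 of 15 (-0.11), other thioredoxin and peroxiredoxin genes in 7 of 10 (-0.09) and regulators of NRF2 in 9 of 12 (-0.03). The 8 genes of the ATF4 stress response, a separate pathway that also drives Slc7a11, were positive in 6 of 8 (median 0.08). The 16 genes induced by tissue dissociation were positive in 14 of 16 (median 0.12) in the same contrast and in 16 of 16 in p21mTert minus p21mTertCD (median 0.23, all genes 0.019), and their part in the differences above was not tested. In p21mTert minus p21mTertCD the NADPH supply genes were negative in 5 of 6 (median -0.33) and the iron and heme genes in 5 of 7 (-0.39). In p21mTertCD minus p21Het the dissociation genes were negative in 15 of 16 (median -0.13, all genes -0.030).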

How the data were processed

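Single cells of mouse lung were captured in 11 libraries with the 10x Chromium 3′ V2 kit, per the labels' protocols, and Cell Ranger with the mm10 build made the matrices, per the submitters' processing notes; the sources name conflicting versions of it. The deposited matrices hold raw UMI counts per gene and barcode; the authors' cell filters and scran normalization are described in the design text but are not in the deposited counts, so the filters (1000 to 30000 UMIs, at most 14% mitochondrial) were applied here.

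A cell took the lineage with the most detected markers (at least 3, and 2 more than the next list, of 10 markers each or 8 for erythroid cells and basophils); gCap and aCap needed 2 markers and a lead of 1 within endothelial cells. Doublets were kept, and an alternative removed the highest Scrublet scores (scanpy 1.11.5) at 0.8% per 1000 barcodes. The library is the replicate. Libraries with under 20 cells of a lineage were left out of it. Sums were tested with edgeR 4.0.16 (filterByExpr, TMM, quasi-likelihood; limma 3.58.1, R 4.3.3) over the 10 libraries of the 3 replicated groups, with Benjamini-Hochberg adjustment over all genes tested and calls at an adjusted p under 0.05. WT has 1 library, entered no test between groups and is given with exact Poisson 95% intervals; these and the limits of low counts cover counting error only. DESeq2 1.42.0 was an alternative, as were other gates, filters and pseudocounts, a term for deposit, the later deposit alone, a replicate block, equal weight per lineage, and leaving out each library. The edgeR test was checked on simulated data. Python 3.11.15, numpy 2.4.6, scipy 1.17.1, pandas 2.3.3 and matplotlib 3.10.9 were used.

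The 10 genes are always named, with Cdkn1a and Tert, the pathway gene of smallest p where none was called, and the genes of highest Pearson r over lineages (3 for Nfe2l2, Nqo1, Hmox1 and Slc7a11, 1 for the others, with at least 10 CPM in a lineage). Pathway lists were regulators, glutathione, thioredoxin and peroxiredoxin, NADPH supply, iron and heme, detoxification, ATF4 stress and dissociation response. The genes, lists, markers and rules were chosen with earlier results of these data known. For gene positions the GENCODE M21 annotation of GRCm38 was used, where 30934 of 31053 identifiers were found. Promoter sequences are from RefSeq (GRCm38.p6).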

Additional observations from a re-analysis of the deposited data

Results flagged for a closer look

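Of 20 groups of 5 p21mTert libraries examined for a library far from the others (the sums of the 10 genes over all cells and their leading lineages), 1 stood out, where chance flags about 1 in 20. Hmox1 in interstitial macrophages was 1129 CPM in p21mTert_5, against 204 in the nearest and 144 in the lowest of the other 4 libraries, so that the gap to the nearest was 0.939 of the whole range.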

How the results depend on the processing

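Over the alternatives, the folds of single genes kept their direction and their side of the threshold in 890 fits and turned sign in 55, and in 8 they passed the threshold, 7 of these with no filter on low counts. The causes were not tested unless stated. With no filter on low counts, which tests more genes, 3 combinations of a gene and a lineage were called in p21mTert minus p21Het (Nqo1 and Txnrd1 in ciliated cells and Gclm in neutrophils, -0.96, adjusted p = 0.00794) and 4 in p21mTert minus p21mTertCD (Srxn1 in ciliated cells, -0.99, adjusted p = 0.0316, and Hmox1 in classical monocytes, non-classical monocytes, -0.72, adjusted p = 0.00612, and interstitial macrophages), by edgeR, beside 0.535% and 0.565% of all combinations. Without p21mTertCD_2, which leaves p21mTertCD_1 alone in its group, Gsr in T cells was -0.74 in p21mTert minus p21mTertCD. Leaving out p21Het_3 gave 1 pathway gene in p21mTertCD minus p21Het. The share of all genes called in that fit is not given, so this count cannot be weighed and is not read as a result. DESeq2 called 1 pathway gene in p21mTert minus p21mTertCD, beside 3.89% of all genes. Over all genes, edgeR called 2, 1 and 21 and DESeq2 31, 587 and 182 in the 3 contrasts in the order of the report. Of the 31 steps between neighbouring lineages, 0 passed in the later deposit alone, where all 31 kept their direction; with its 8 libraries no p can go below 0.0078, which over 180 pairs passes only where at least 29 reach it, and 19 did. With 1 library left out, 18 to 31 of the pairs passed (20 without p21mTert_2, 19 without p21mTert_3 or p21mTertCD_1, 18 without p21mTert_4 or p21mTertCD_2).

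Folds over all kept cells turned sign as follows. In p21mTert minus p21Het, Nfe2l2 was 0.12 with equal weight for each lineage and -0.35 to 0.16 with 1 library left out (highest without p21Het_3), Gclc -0.46 to 0.038 and Gclm -0.17 to 0.082 (both highest without p21Het_2, and Gclm 0.011 without p21mTert_1). In p21mTert minus p21mTertCD with equal weight for each lineage, Nfe2l2 was 0.00061, Gclc -0.0041, Slc7a11 0.0085 and Gsr 0.021. With 1 library left out, Slc7a11 was -0.50 to 0.16, Prdx1 -0.48 to 0.063 and Hmox1 -0.97 to 0.10, each highest without p21mTertCD_1, and Nqo1 -0.66 to 0.69, highest without p21mTertCD_2. In p21mTertCD minus p21Het, Nfe2l2 was 0.0041 by DESeq2 and 0.12 with equal weight, where Srxn1 was -0.083 and Hmox1 0.059. A term for deposit gave -0.039 for Txnrd1 and -0.017 for Srxn1, and the later deposit alone -0.059 and -0.13. With 1 library left out, Nfe2l2 was -0.18 to 0.32, Slc7a11 -0.93 to 0.037 and Gsr -0.52 to 0.38, each highest without p21Het_3, Prdx1 -0.37 to 0.17 and Hmox1 -0.69 to 0.37, both highest without p21mTertCD_2, and Txnrd1 -0.082 to 0.28 and Srxn1 -0.15 to 0.24, both lowest without p21Het_1.

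Within lineages, in p21mTert minus p21Het, Nfe2l2 in ciliated cells was -0.032 with a term for deposit and -0.071 to 0.091 with 1 library left out. In neutrophils Gsr was -0.033 with the stricter gate and -0.021 to 0.088 with 1 library left out, and Slc7a11 -0.040 with the stricter gate, -0.0059 without high doublet scores, -0.096 in the later deposit alone and -0.077 to 0.088 with 1 library left out. Hmox1 in interstitial macrophages was -0.65 to 0.99 with 1 library left out, and -0.12 to 1.21 in p21mTert minus p21mTertCD, both lowest without p21mTert_5. Gsr in T cells was -0.74 to 0.029 in the latter contrast, highest without p21mTertCD_1.

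The labels give a replicate number to the 8 libraries of the later deposit, and those of the first deposit, numbered 1 here as a name only, entered no pairing. The 4 pairs of libraries that share a labelled number (2 or 3) in different groups had correlations of -0.020, -0.26, -0.41 and 0.18 and were not treated as paired. With a replicate block over these 8 libraries, 0 of the 10 genes were called in each contrast, Gclc was 0.12 in p21mTert minus p21Het, Prdx1 0.093 in p21mTert minus p21mTertCD, and Txnrd1 -0.21 and Srxn1 -0.31 in p21mTertCD minus p21Het. In this fit p21mTertCD_1, p21mTert_4 and p21mTert_5 share their number with no other library, so they add nothing to its folds. So few libraries are left to estimate the spread that the absence of calls decides nothing. With this replicate block within lineages, Hmox1 in interstitial macrophages was -0.51 in p21mTert minus p21Het and -0.77 in p21mTert minus p21mTertCD, Gsr and Slc7a11 in neutrophils were -0.023 and -0.097 in the first contrast, and Gsr in T cells was 0.13 in the second. Depth limits the sparse genes most: the ciliated cells of a library held 9 to 169 Nqo1 UMIs, 5 to 22 Hmox1 UMIs and 2 to 21 Slc7a11 UMIs. The p21mTertCD group has 2 libraries, so its contrasts lean on each of them.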
